A study of Homo sapiens with 4 samples.

Results

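The effect of imatinib was examined in K562/G01 cells that carried a scramble hairpin. K562/G01 is an imatinib-resistant derivative of K562, an established line from chronic myeloid leukemia whose growth depends on the fusion kinase BCR-ABL1. The comparison used 2 of the 4 libraries of the series. In 1 library the scramble cells had received imatinib at 1 µM for 48 hours, and in the other they had received none. Both groups were stably infected with the LV-Scramble lentivirus, whose hairpin serves as the control for a hairpin against TCF7, a Wnt pathway transcription factor. The other 2 libraries came from TCF7 knockdown cells (LV-TCF7-RNAi) with the same imatinib dose and time or with none, and they serve here only as a second, separate pair. The labels give neither the vehicle of the untreated cells nor whether infected cells were cloned.

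Imatinib occupies the ATP site of ABL1, of the receptor KIT and of the platelet-derived growth factor receptors. In sensitive cells it silences the signals that BCR-ABL1 sends through GRB2 and RAS to the ERK kinases, through phosphoinositide 3-kinase, and through STAT5. Transcripts that report on these routes, such as PIM1, CISH and SOCS2 for STAT5 or EGR1, SPRY4 and DUSP6 for ERK, then become scarcer, and K562 cells can move towards erythroid differentiation with more globin mRNA.

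Few genes differed much between the libraries, and a large part of the differences followed the base composition of the transcripts. The 3 genes highest and the 3 lowest after imatinib that met the rules for a sequence are printed to show their composition. They are not evidence for the relation, since much of their difference remained once a trend over GC content and transcript length was removed. The log2 ratio went from 1.15 to 0.95 for EMC6, 1.08 to 0.68 for HPS6 and 0.98 to 0.57 for ARMC5. It went from -0.91 to -0.81 for KIT, -0.90 to -0.88 for ACER2 and -0.75 to -0.62 for AMN1. Each line gives 120 bases from the middle of the coding part of the longest GENCODE release 29 transcript (GRCh38), 5′ to 3′ on the sense strand, with G and C in capitals.
EMC6: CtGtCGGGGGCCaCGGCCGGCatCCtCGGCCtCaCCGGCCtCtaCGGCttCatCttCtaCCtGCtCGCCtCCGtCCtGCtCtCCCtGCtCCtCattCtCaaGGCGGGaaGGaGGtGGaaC
HPS6: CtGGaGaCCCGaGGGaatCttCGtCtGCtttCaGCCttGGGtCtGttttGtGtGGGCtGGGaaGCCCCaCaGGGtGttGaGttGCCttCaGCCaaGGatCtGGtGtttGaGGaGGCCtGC
ARMC5: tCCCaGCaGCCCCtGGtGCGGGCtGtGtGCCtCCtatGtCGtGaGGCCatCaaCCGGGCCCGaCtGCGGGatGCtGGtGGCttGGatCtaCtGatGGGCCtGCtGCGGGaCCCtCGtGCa
KIT: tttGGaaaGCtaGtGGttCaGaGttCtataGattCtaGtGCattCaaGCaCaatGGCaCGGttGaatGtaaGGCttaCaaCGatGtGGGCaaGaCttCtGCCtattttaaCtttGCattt
ACER2: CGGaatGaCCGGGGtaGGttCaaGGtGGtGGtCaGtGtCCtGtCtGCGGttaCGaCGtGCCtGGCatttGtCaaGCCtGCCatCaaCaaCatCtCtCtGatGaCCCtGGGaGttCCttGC
AMN1: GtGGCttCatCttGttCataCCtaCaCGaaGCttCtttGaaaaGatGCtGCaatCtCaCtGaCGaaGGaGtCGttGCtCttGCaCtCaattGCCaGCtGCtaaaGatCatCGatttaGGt
EMC6 (chr17:3668815-3669668, plus strand) is shown at coding bases 106 to 225 of 333, HPS6 (chr10:102065390-102068038, plus strand) at 1105 to 1224 of 2328, and ARMC5 (chr16:31458080-31467166, plus strand) at 1030 to 1149 of 2178. KIT (chr4:54657918-54740715, plus strand) is shown at coding bases 1405 to 1524 of 2931, ACER2 (chr9:19409059-19452020, plus strand) at 355 to 474 of 828, and AMN1 (chr12:31671137-31729174, minus strand) at 328 to 447 of 777. G and C made up 65.8% of the stretch of EMC6, 57.5% of that of HPS6 and 66.7% of that of ARMC5. For KIT, ACER2 and AMN1 the shares were 40%, 55.8% and 44.2%. Over the whole coding part the 3 genes that were higher held 63.1%, 65.6% and 67.5% G and C, and the 3 that were lower held 44.9%, 52.2% and 41.7%.

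Both libraries were deep. The deposited read counts summed to 33146606 without imatinib and to 34095585 with it, so that 1 count was worth 0.0302 and 0.0293 CPM, read counts scaled to the library total. The 10 most abundant genes took 8.60% and 8.65% of the counts, and mitochondrially encoded genes took 6.76% and 6.94%. All 10 markers of K562 identity were measured, the lowest at 17.1 CPM. Markers of other cell types were mostly at or near 0, including CD3E with 0 counts in both libraries and the B lymphocyte list with a sum of 0.0604 and 0.0581 CPM. Exceptions included CD3D and CD3G of the T cell receptor complex (a summed T lymphocyte list of 26.6 CPM without and 20.2 CPM with imatinib). Larger ones were LYZ (35.9 and 38.7 CPM), EPCAM (a summed epithelium list of 51.4 and 46.3 CPM) and PECAM1. The summed fibroblast and endothelium list, which holds PECAM1, had 47.4 and 41.9 CPM. CSF3R (4.13 and 4.24 CPM) and ITGAM (65 and 45 counts) were exceptions at lower levels. TCF7 stood at 339 counts without and 367 with imatinib, a log2 ratio of 0.06 (95% interval -0.16 to 0.28).

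Ratios are log2 values of imatinib over none, from CPM scaled with TMM factors and a prior count of 2. Each group has 1 library, so no ratio has a replicate check, no test was made, and higher and lower describe these libraries. Intervals are exact binomial 95% intervals of the counts and cover counting error only. In RNA from whole cultures, fewer cells of a type and less RNA per cell cannot be told apart.

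Of 13296 genes with at least 1 CPM in 2 or more of the 4 libraries, 111 (0.835%) were at 2-fold or more higher with imatinib and 63 (0.474%) at 2-fold or more lower. Most of these were scarce transcripts. Their median mean level was 1.22 CPM, and 108 of the 111 and 62 of the 63 had a mean under 5 CPM. Among the 10092 genes averaging 5 CPM or more over both libraries, a limit chosen after the values were seen, 3 were at 2-fold higher (0.0297%) and 1 at 2-fold lower (0.00991%). The 3 were EMC6, EME2 and HPS6, and the 1 was CTD-2576N18.1, an unclassified transcript on chromosome 18 with 270 counts without and 139 with imatinib (-1.0, -1.32 to -0.71).

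At a limit of 1.5-fold the same 10092 genes gave 172 higher (1.7%) and 22 lower (0.218%). The standard deviation of their log2 ratios was 0.23, and the middle 90% lay between -0.28 and 0.44. At this depth even small differences exceeded counting error: the interval left out equal levels for 6123 of these genes (60.7%), of which 2935 were higher and 3188 lower. That share describes 2 libraries and not a treatment, because variation between cultures was not measured.

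**Figure D1:**
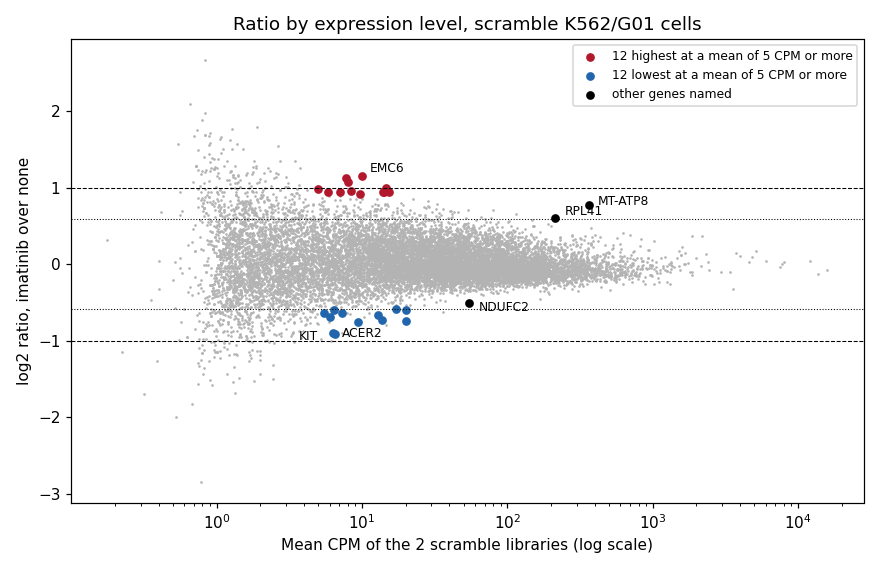
Each point is 1 of 13296 genes, with the mean CPM of both scramble libraries on a log axis and the log2 ratio of imatinib over none on the other. Dashed lines mark 2-fold and dotted lines 1.5-fold. The 12 highest protein-coding genes averaging 5 CPM or more (red) lie between 0.92 and 1.15, the 12 lowest protein-coding genes (blue) between -0.91 and -0.59, and the cloud narrows as the level increases.

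EMC6 had the highest ratio of any protein-coding gene at this level. It encodes a subunit of the ER membrane protein complex, which inserts membrane proteins into the endoplasmic reticulum. Its counts were 207 without and 479 with imatinib, or 6.25 and 13.9 CPM, a log2 ratio of 1.15 (0.92 to 1.40). P2RX5-TAX1BP3 runs over it on the opposite strand, and no source used here gives the strand setting of the counting. The other subunits of the complex did not share this difference. Of 9 measured members 4 were above 0 and 5 below, the list's median was -0.01, and EMC7 stood at -0.29, EMC4 at -0.18 and EMC10 at 0.30.

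EME2, which forms a DNA structure-specific endonuclease with MUS81, was next with 4.89 CPM without and 10.8 CPM with imatinib (1.13, 0.87 to 1.41). HPS6, a subunit of a complex that makes lysosome-related organelles, had 5.16 and 10.9 CPM (1.08, 0.82 to 1.35). HBA2, an alpha globin, had 9.72 and 19.4 CPM (0.99, 0.81 to 1.20). ARMC5, TIGD5, TRMT61A, KYAT1, FBXL6, PPDPF, MEX3D and SNAPC2 completed the 12 highest, down to a ratio of 0.92. Among these TRMT61A is the catalytic subunit of a tRNA methyltransferase, KYAT1 an aminotransferase of kynurenine metabolism, and SNAPC2 a subunit of the complex that starts transcription of small nuclear RNA genes. All 12 were modest in level, with means of 5.01 to 15.3 CPM, and their transcripts held 54.7% to 68.2% G and C. No functional theme was fixed for these genes, and none was tested.

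KIT was the lowest protein-coding gene averaging 5 CPM or more. It encodes the stem cell factor receptor, itself a kinase that imatinib inhibits. Its counts were 284 without and 156 with imatinib, or 8.57 and 4.53 CPM (-0.91, -1.21 to -0.63). ACER2, a ceramidase of the Golgi, followed with 8.21 and 4.38 CPM (-0.90, -1.20 to -0.61). AMN1 had 11.7 and 6.97 CPM (-0.75). SESN3, a sestrin that restrains mTORC1 signalling and is a known target of FOXO factors, had 25 and 15 CPM (-0.74, -0.90 to -0.58).

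The remaining 8 of the 12 lowest were HIST2H2AA4, MORC4, TXK, C20orf196, DEPDC4, FAM49A, C11orf74 and CD3D. TXK, a TEC family tyrosine kinase of lymphocytes, had 15.8 CPM without and 9.96 with imatinib (-0.67). CD3D had 20.8 and 13.8 CPM (-0.59), whereas CD3G had 158 and 167 counts. HIST2H2AA4, a replication-dependent H2A histone, had 17.2 and 10.3 CPM (-0.73). Its near-identical copy HIST2H2AA3 was higher, at 60.5 and 99.2 CPM (0.71), and reads of such copies can be divided between them in either way, so both ratios are uncertain.

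**Figure D2:**
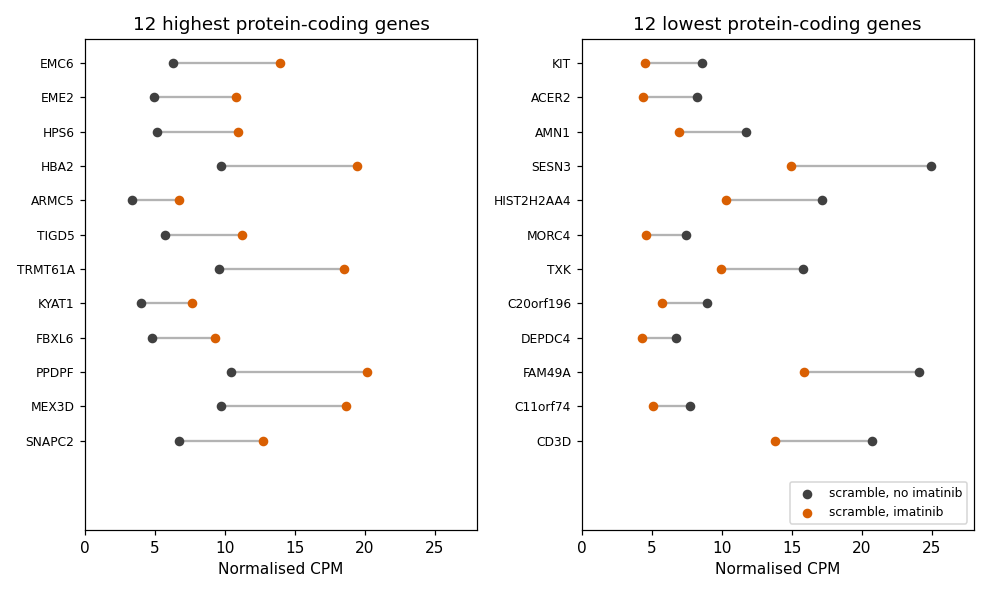
Normalised CPM without imatinib (dark points) and with imatinib (orange points) for the 12 highest and the 12 lowest protein-coding genes averaging 5 CPM or more. Each point is 1 library. EMC6 goes from 6.25 to 13.9 CPM and KIT from 8.57 to 4.53 CPM, and SESN3 has the highest level shown, 25 CPM without imatinib.

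The ratio followed GC content across the transcriptome. Over 10081 genes averaging 5 CPM or more with a matched transcript, the Spearman correlation of the log2 ratio with the GC content of the longest transcript was 0.68, a description across genes of 1 pair of libraries that share preparation and sequencing. When these genes were cut into 10 groups of equal size by GC content, the poorest group (27.8% to 38.0%) behaved unlike the richest (60.6% to 72.8%). In the poorest, the median ratio was -0.13 and 11.9% of genes were above 0. In the richest the median was 0.34 and 96.5% were above 0. This group held 117 of the 172 genes at 1.5-fold higher. Of those 172 genes, 169 were richer in G and C than the median gene (47.0%), with a median of 62.9%, and of the 22 lower genes 17 were poorer, with a median of 42.1%.

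The relation was nearly as close within the coding part (Spearman correlation 0.67), at the third position of codons (0.65) and in the 3′ untranslated part (0.62), and weak in the 5′ untranslated part (0.16) and in the stretch before the transcription start, from RefSeq promoters, (0.11). Transcript length went with the ratio only slightly (-0.16), and so did exon number (-0.09). A smooth trend over GC content and length took 27.3% of the variance of the log2 ratios of all 13255 genes with both values, and GC content alone took 27.1%. Over the genes averaging 5 CPM or more the trend took 49.8%. With 1 library a side, a difference in RNA or library preparation and an effect of imatinib cannot be told apart as its source.

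**Figure D3:**
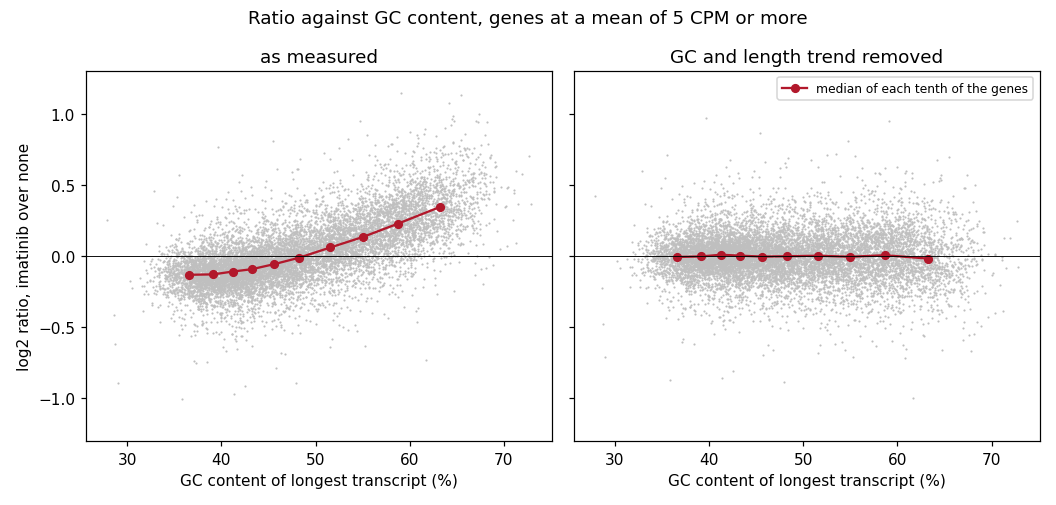
The log2 ratio of imatinib over none against the GC content of the longest transcript (%) for 10081 genes averaging 5 CPM or more, as measured and after the GC and length trend was removed. Red points join the medians of 10 groups of equal size, which run from -0.13 to 0.34 as measured and between -0.02 and 0.01 after removal.

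The same gradient showed along the chromosomes, whose genes differ in composition. Medians over the 10081 genes averaging 5 CPM or more with a matched transcript were lowest for chromosomes 13 and 18 (both -0.09, with a median GC content of 41.1% and 42.2%) and highest for chromosomes 19 (0.21, 58.3%), 22 (0.11, 54.6%) and 16 (0.11, 53.5%). After the trend was removed, nuclear chromosomes lay between -0.04, for chromosome 21, and 0.01, for chromosome 19. The 13 mitochondrial mRNAs had a median of 0.05 as measured and 0.14 after removal.

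With the trend removed, the standard deviation averaging 5 CPM or more was 0.16 in place of 0.23. At 1.5-fold 26 genes were higher (0.258%) and 26 lower (0.258%), and at 2-fold 0 were higher (0%) and 0 lower (0%), with no test behind these counts. Of the 172 higher genes 20 stayed past 1.5-fold, and of the 22 lower genes 14 did. Over all tested genes 79 (0.596%) were at 2-fold higher and 57 (0.43%) at 2-fold lower after removal, and 340 (2.57%) and 302 (2.28%) at 1.5-fold. The median GC content was then 49.6% for the 26 higher and 53.8% for the 26 lower genes.

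The highest protein-coding genes averaging 5 CPM or more were, after removal, MT-ATP8 (0.97), EMC6 (0.95), ZNF140 (0.86), KYAT1 (0.81), ARPC4 (0.72), MMP24-AS1 (0.71), IFITM1 (0.71), C19orf60 (0.70), EME2 (0.70), IFT46 (0.69), HPS6 (0.68) and PSMD9 (0.67). Only 4 of them (EMC6, KYAT1, EME2 and HPS6) were among the 12 highest as measured. IFITM1, an interferon-induced membrane protein that restricts virus entry, had 21.2 CPM without and 36.0 CPM with imatinib (0.76 as measured, 0.63 to 0.90). ARPC4, a subunit of the actin-nucleating ARP2/3 complex, had 20.4 and 36.1 CPM (0.82 as measured), but the readthrough gene ARPC4-TTLL3 shares its strand. MT-ATP8, a subunit of the mitochondrial ATP synthase, had 270 and 460 CPM (0.77 as measured, 0.73 to 0.81). Its reading frame overlaps that of MT-ATP6 on the same strand, so its count depends on how shared reads were assigned.

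Among the 12 lowest at that level after removal were HIST2H2AA4 (-1.0), ACER2 (-0.88), KIT (-0.81), C20orf196 (-0.68), LTBP3 (-0.67), CCDC92 (-0.66), MORC4 (-0.66), HS6ST1 (-0.65), IL15RA (-0.63) and CD3D (-0.62). Of the 12 lowest after removal 6 were also among the 12 lowest as measured: HIST2H2AA4, ACER2, KIT, C20orf196, MORC4 and CD3D. KIT and ACER2 were thus low on either scale. LTBP3 is rich in G and C (67.8%), and its ratio as measured was only -0.20, with an interval that includes equal levels.

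Among abundant transcripts the differences were small. Of 4412 genes averaging 50 CPM or more, a limit also chosen after the values were seen, 9 were at 1.5-fold higher (0.204%) and 0 lower (0%), without a test. With the trend removed 2 were higher (0.0453%), MT-ATP8 and RPL41, and 0 lower (0%), and the standard deviation was 0.10. RPL41, a very short ribosomal protein, had 170 CPM without and 259 CPM with imatinib (0.61 as measured, 0.65 after removal). Others of the 9 were HIST2H2AA3 (0.71), RECQL4 (0.71), H2AFX (0.65), POLRMT (0.61) and POLR2E (0.60). NDUFC2, a subunit of respiratory complex I, was lower at 64.2 and 45.1 CPM (-0.51), though short of 1.5-fold, and it overlaps the readthrough gene NDUFC2-KCTD14. These genes were named after their values were seen.

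The remaining results describe 42 gene lists by their measured members, those that passed the filter. Over all tested genes, 48.4% had a ratio above 0, 4.4% were at 1.5-fold higher and 2.37% at 1.5-fold lower, and the median was -0.01. Between scalings that median lay between -0.01 and 0.00. List medians ran from -0.13 to 0.22 as measured and from -0.15 to 0.14 with the trend removed. Of the 42 lists, 25 had a median above 0 as measured and 25 after removal, and 21 had no member at 1.5-fold. Only 4 of the 1059 measured list members were at 2-fold, all of them higher: EMC6, BBC3, CYP51A1 and SRXN1. The lists' medians also went with their median GC content (Spearman correlation 0.54 over 42 lists that share genes and libraries).

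**Figure D4:**
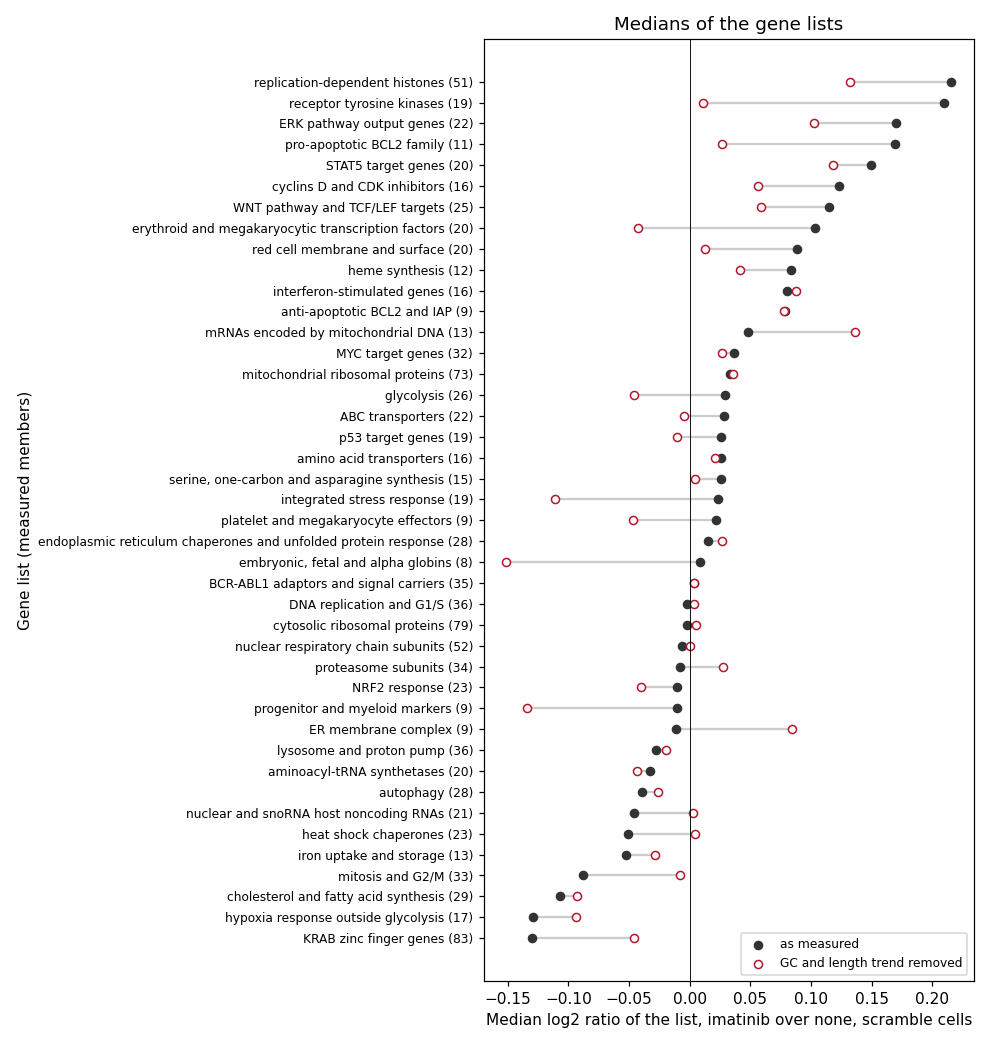
Median log2 ratio of imatinib over none for each of 42 gene lists, as measured (dark points) and with the GC and length trend removed (open points); the number of measured members is in brackets. Replication-dependent histones are highest as measured (0.22) and KRAB zinc finger genes lowest (-0.13), and lists such as receptor tyrosine kinases (0.21 and 0.01) lie near 0 after removal.

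The BCR-ABL1 signalling machinery was level. Its 35 measured adaptors and signal carriers had a median of 0.00 on either scale, with 18 above and 17 below 0 and 1 at 1.5-fold. The 2 loci of the fusion were slightly higher with imatinib, ABL1 at 203 and 245 CPM (0.27, and 0.02 with the trend removed) and BCR at 177 and 206 CPM (0.22, and -0.05). Gene counts do not separate the fusion transcript from the normal alleles. LYN, a SRC family kinase linked to imatinib resistance, was abundant and similar at 1355 and 1259 CPM (-0.11). The member at 1.5-fold was HRAS, a RAS GTPase, with 5.64 and 9.61 CPM (0.76, and 0.34 with the trend removed), and GAB1, a docking protein, was lowest (-0.38). The inhibitory docking proteins DOK1 and DOK2 stood at 0.43 and 0.39, and at 0.05 and 0.14 with the trend removed.

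Transcripts that report on STAT5 lay mostly above 0 after imatinib. Of 20 measured STAT5 targets 16 were above 0 and 4 below, with a median of 0.15 and 2 at 1.5-fold higher. With the trend removed 13 of the 20 were above 0, against 49.1% of all tested genes, with a median of 0.12 and none at 1.5-fold. The kinase PIM1 had 278 CPM without and 353 CPM with imatinib (0.35, 0.31 to 0.38), and PIM3 had 12.6 and 20.2 CPM (0.68). The feedback inhibitors CISH and SOCS1, which damp JAK-STAT signalling, stood at 0.42 and 0.66, and SOCS2 at 0.10. BCL6, a repressor that STAT5 holds down in this leukemia, was level with 9.08 and 8.54 CPM (-0.09, -0.33 to 0.15). PIM3 and SOCS1 are rich in G and C and stood at 0.22 and 0.19 with the trend removed.

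ERK output genes were likewise mostly above 0, 15 of 22, with a median of 0.17 (0.10 with the trend removed). The other 7 were below 0, the lowest at -0.48, and 2 had intervals wholly below 0. The immediate early genes IER2 and JUNB were at 1.5-fold higher, IER2 with 33.1 and 53 CPM (0.68) and JUNB with 26.1 and 39.4 CPM (0.59), and with the trend removed they stood at 0.37 and 0.18. EGR1, an early growth response factor, had 53.7 and 62.1 CPM (0.21), and SPRY4, a feedback inhibitor, 58.4 and 64.7 CPM (0.15). ETV5, an ETS factor, kept its ratio after removal (0.35 and 0.34). DUSP6, the ERK phosphatase, had only 20 and 30 counts and did not pass the filter, and FOS had 37 and 43 counts (0.15, -0.51 to 0.84).

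MYC, the growth-promoting transcription factor downstream of both routes, had 339 CPM without and 409 CPM with imatinib (0.27, 0.23 to 0.30), and 0.15 with the trend removed. Its 32 measured target genes had a median of 0.04, with 20 above and 12 below 0 and none at 1.5-fold. The members with the largest ratios were PPAN (0.48), GRWD1 (0.40), PES1 (0.38) and BOP1 (0.37), which stood at 0.13, 0.16, 0.17 and -0.05 with the trend removed, and LDHA and TFRC were at -0.25 and -0.23. The 79 measured cytosolic ribosomal proteins had a median of 0.00 (39 above 0), with RPL41 the only member at 1.5-fold and RPS15 at 0.47, RPL17 at 0.43, RPS19 at 0.38 and RPS21 at -0.23. Mitochondrial ribosomal proteins (73 measured, 41 above 0, median 0.03) held 1 member at 1.5-fold. Aminoacyl-tRNA synthetases (20 measured, 8 above 0) had a median of -0.03.

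The embryonic, fetal and alpha globins were not uniformly higher. Of 8 measured genes 4 were above and 4 below 0, with a median of 0.01 as measured and -0.15 with the trend removed. HBA2 was at 1.5-fold higher and HBD, the delta globin, at 1.5-fold lower, with 46 and 28 counts (-0.73, -1.50 to -0.06, and -0.77 with the trend removed). HBE1, the embryonic epsilon globin and the most abundant, had 1182 and 1261 CPM (0.09). The fetal gamma globins HBG2 and HBG1 were lower, at 382 and 320 CPM (-0.25, -0.29 to -0.22) and at 126 and 116 CPM (-0.12, -0.18 to -0.06). HBG2 overlaps HBE1 on the same strand, and both gamma globins overlap AC104389.5 there. The counts of HBE1, HBG2 and HBG1 thus depend on how shared reads were assigned. The alpha globins HBA2 (0.99) and HBA1 (14.2 and 20.5 CPM, 0.53) were higher but scarce, are near-identical copies, and are rich in G and C, so that they stood at 0.57 and 0.11 with the trend removed. HBZ, the embryonic zeta globin, was at 0.08 as measured and -0.31 with the trend removed.

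Other erythroid genes gave no single direction. Heme synthesis enzymes had 9 of 12 above 0 (median 0.08), with ALAS2, the first enzyme in red cells, at 41.8 and 47.4 CPM (0.18). Iron genes had 4 of 13 above 0 (median -0.05): TFRC, the transferrin receptor, had 1350 and 1149 CPM (-0.23), while FTL, the light chain of ferritin, had 1912 and 2480 CPM (0.37). The 20 red cell membrane and surface genes had 11 above 0 (median 0.09), with the glycophorin GYPB at -0.32 and BLVRB at 0.30. Erythroid and megakaryocytic transcription factors had 14 of 20 above 0 as measured (median 0.10) and 6 of 20 with the trend removed (median -0.04). GATA1, the master factor of red cells, had 86.0 and 114 CPM (0.40, and 0.13 with the trend removed), KLF1 stood at 0.30 and -0.13, and LYL1 at 0.57 and 0.38.

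Megakaryocyte and platelet effectors (9 measured, 5 above 0, median 0.02) ran from -0.57 to 0.62, with 1 at 1.5-fold higher. With the trend removed 1 was at 1.5-fold higher and 1 lower. Among those averaging 5 CPM or more, SRGN stood at -0.41, TUBB1 at -0.35 and GP6 and F2R at 0.30 each. Of the progenitor and myeloid markers 9 of the 20 in the table were measured, 4 above 0, with a median of -0.01 and KIT as the member at 1.5-fold lower. CD34 had 1 count without and 0 with imatinib. Among the receptor tyrosine kinases 13 of 19 were above 0, with a median of 0.21 as measured and 0.01 with the trend removed. KIT (-0.91) and ERBB3 (153 and 104 counts, -0.60) were at 1.5-fold lower, and FGFR4 (7.91 and 12.3 CPM, 0.64) at 1.5-fold higher. EPHB4 and EPHB6 stood at 0.37 and 0.35, and at 0.09 and 0.07 with the trend removed.

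Pro-apoptotic BCL2 family genes had 7 of 11 above 0, with a median of 0.17 (0.03 with the trend removed). With a filter at 5 CPM in at least 2 libraries the median was -0.10. BCL2L11, which encodes BIM and accumulates in sensitive cells when BCR-ABL1 is inhibited, had 48.3 and 45.1 CPM (-0.10, -0.20 to 0.01). BBC3, which encodes PUMA, had 34 and 88 counts (1.27, 0.73 to 1.93), BAK1 stood at 0.58 and BAX at 0.46 (0.36 and 0.25 with the trend removed), and BNIP3 and BNIP3L at -0.34 and -0.27. Among 9 anti-apoptotic genes 6 were above 0 (median 0.08), with BCL2L1, which encodes BCL-XL, at 88.1 and 97.5 CPM (0.15), MCL1 at 0.02 and BCL2L2 at 0.48. The 19 measured p53 targets had a median of 0.03 (10 above 0), with FDXR at 0.55, GDF15 at 0.50, BTG2 at -0.33 and TP53INP1 at -0.39, and at 0.24, 0.16, -0.37 and -0.27 with the trend removed.

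Measured cyclin, replication and mitosis genes stayed within 1.5-fold, whereas some histone genes did not. Of the D cyclins and CDK inhibitors 10 of 16 were above 0 (median 0.12), with CDKN1B, which encodes the inhibitor p27, at 26.0 and 32.4 CPM (0.32, and 0.33 with the trend removed), CCND3 at 0.34 and CCND2 at 0.13. DNA replication and G1/S genes were balanced (18 of 36 above 0, median 0.00), with CDT1 at 0.42 and E2F1 at 0.44 as measured and at 0.00 and 0.10 with the trend removed. Mitosis and G2/M genes had 10 of 33 above 0 and a median of -0.09, with CENPE at -0.24, NEK2 at -0.21 and CCNB2 at -0.20, but PLK1 at 0.31. The mitosis list is poor in G and C (median 42.6%), and with the trend removed its median was -0.01. Replication-dependent histones had 43 of 51 above 0, the highest median of all lists (0.22, and 0.13 with the trend removed). HIST2H2AA3 and HIST2H3C were at 1.5-fold higher (0.71 and 0.69) and HIST2H2AA4 at 1.5-fold lower (-0.73). HIST2H3D stood at 0.57, HIST1H4B at 0.43 and HIST1H3H at 0.38, and at 0.16, 0.38 and 0.38 with the trend removed. Such mRNAs mostly lack a poly(A) tail and are kept by the depletion of ribosomal RNA used here.

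Hypoxia response genes outside glycolysis were the most one-sided of the metabolic lists, with 3 of 17 above 0 and a median of -0.13 (2 of 17 and -0.09 with the trend removed). INSIG2 had 13.2 and 8.94 CPM (-0.56), P4HA1 and P4HA2, prolyl hydroxylases of collagen, stood at -0.35 and -0.38, and BNIP3 had 99.2 and 78.3 CPM (-0.34). Glycolysis genes as a list had a median of 0.03 (14 of 26 above 0), and -0.05 with the trend removed. On the latter scale 8 of 26 were above 0, against 49.1% of all tested genes, and 2 at 1.5-fold lower, against 2.28%. LDHA, lactate dehydrogenase A, had 1106 and 927 CPM (-0.25), and PDK1, a pyruvate dehydrogenase kinase, 171 and 142 CPM (-0.26). TPI1 stood at 0.29 and the glucose transporter SLC2A1 at 0.27 (0.10 and 0.14 with the trend removed).

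The 13 mRNAs of mitochondrial DNA had 10 above 0, with a median of 0.05, and 11 above 0 with a median of 0.14 after removal. MT-CO2 had 4837 and 5442 CPM (0.17), MT-ND6 stood at 0.14, MT-ND3 at -0.26 and MT-ATP8 at 0.77. Their nuclear-encoded partners in the respiratory chain were balanced (26 of 52 above 0, median -0.01), with NDUFC2 at -0.51, NDUFS7 at 0.48, ATP5D at 0.40 and UQCRC1 at 0.36 as measured, and at -0.45, 0.20, 0.02 and 0.13 with the trend removed. Cholesterol and fatty acid genes had 12 of 29 above 0, with a median of -0.11 (-0.09 with the trend removed). The regulator SREBF1 stood at 0.49 and the mevalonate enzymes MVD, PMVK and MVK at 0.41, 0.36 and 0.34, and with the trend removed these 4 stood at 0.14, 0.03, 0.13 and 0.13. On the lower side MSMO1, a sterol oxidase, had 89.0 and 71.1 CPM (-0.32). The scarce CYP51A1, a demethylase of sterol synthesis, had 40 and 89 counts (1.06, 0.54 to 1.67).

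Stress pathways were close to level. Integrated stress response genes had 10 of 19 above 0, with a median of 0.02 as measured and -0.11 with the trend removed. CREBRF stood at -0.51, DDIT3, which encodes CHOP, at -0.30 and the amino acid sensor SESN2 at 0.30. Asparagine, serine and one-carbon enzymes (8 of 15 above 0, median 0.03) included ASNS, asparagine synthetase, at 77.7 and 65.9 CPM (-0.24), ALDH1L2 at -0.56 and PYCR1 at 0.40 (-0.45 and 0.09 with the trend removed). Amino acid transporters (10 of 16 above 0, median 0.03) included SLC7A5 at 0.40, SLC1A5 at 0.36 and SLC38A2 at -0.21, and with the trend removed these stood at 0.11, 0.07 and -0.09.

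Chaperones of the endoplasmic reticulum had a median of 0.02 (16 of 28 above 0), with HSPA5, which encodes BiP, at 0.10, DNAJB9 at -0.46 and SDF2L1 at 0.60 (-0.34 and 0.19 for these with the trend removed). Heat shock chaperones had a median of -0.05 (10 of 23 above 0), with HSPB1 at 0.40 and DNAJA1 at -0.20 (0.01 and -0.09 with the trend removed). Proteasome subunits had a median of -0.01 (16 of 34 above 0). PSMD9, an assembly chaperone, had 5.86 and 9.70 CPM (0.72) and overlaps WDR66 on the same strand. Lysosome and proton pump genes had a median of -0.03 (16 of 36 above 0), with the protease CTSD at 0.62 (0.23 with the trend removed). Autophagy genes had a median of -0.04 (12 of 28 above 0), with ATG2A at 0.39 and ATG10 at -0.37 (0.00 and -0.27 with the trend removed). NRF2 response genes had a median of -0.01 (11 of 23 above 0), with TXN at -0.32 and SRXN1 at 18 and 47 counts (1.24, 0.52 to 2.20).

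Of the interferon-stimulated genes 16 were measured and 19 in the table fell under the filter. Their median was 0.08 (10 above 0), with 3 at 1.5-fold higher and 1 lower. IFITM1 was the most abundant of the 3. RSAD2, an antiviral enzyme, had 78 and 133 counts (0.70, 0.30 to 1.14), TAP1, a peptide transporter, 27 and 50 counts (0.79, 0.13 to 1.57), and TRIM22, the member at 1.5-fold lower, 24 and 14 counts (-0.75, -1.90 to 0.18). IRF1 stood at 0.51 and BST2 at 0.37, and B2M, the light chain of class I antigen-presenting molecules, at -0.24.

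The drug transporters known for imatinib were scarce, and no difference was detectable at this depth. ABCB1, the classic multidrug pump, had 11 and 13 counts and ABCG2 1 and 1, both under the filter. ABCC2 had 89 and 90 counts (-0.04, -0.48 to 0.40). The 22 measured ABC transporters had a median of 0.03 (12 above 0), with ABCB8 at 0.46 (0.20 with the trend removed). Wnt pathway genes and TCF/LEF targets had 19 of 25 above 0 and a median of 0.11 (0.06 with the trend removed), with DVL1 at 0.45, DVL2 at 0.42 and AXIN1 at 0.35 as measured and at -0.02, 0.15 and -0.03 with the trend removed.

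Nuclear and snoRNA host noncoding RNAs had 8 of 21 above 0, with a median of -0.05. MALAT1, the most abundant, had 14410 and 13232 CPM (-0.12, and 0.00 with the trend removed). SNHG6 had 193 and 142 CPM (-0.45), MIR17HG, the host of the miR-17-92 cluster, 187 and 147 CPM (-0.35), and SNHG7 and SNHG3 stood at 0.50 and 0.35, and at 0.06 and 0.39 with the trend removed. KRAB zinc finger genes, which repress transposable elements and are poor in G and C (median 41.8%), had 20 of 83 above 0 and the lowest median (-0.13, and -0.05 with the trend removed). ZNF441 stood at -0.49 and ZNF432 at -0.43, while ZNF140 had 127 and 233 counts (0.81, 0.50 to 1.14).

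The pair from TCF7 knockdown cells shares no library with the scramble pair and holds the same imatinib contrast. Over the 10092 genes averaging 5 CPM or more in the scramble pair, the Pearson correlation of the ratios was 0.71, across genes and not replicates, and 0.37 with the trend removed in both. Ratios spread more widely in knockdown cells (standard deviation 0.35 against 0.23), where 873 genes (8.65%) were at 1.5-fold higher and 109 (1.08%) lower. The GC gradient was also steeper there, with a Spearman correlation of 0.75 and medians from -0.24 in the group poorest to 0.60 in that richest in G and C.

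Of the 172 genes at 1.5-fold higher in scramble cells 168 were above 0 in knockdown cells, against 49% of all genes, and 127 were at 1.5-fold higher, against 8.65%. Of the 22 lower genes 17 were below 0 and 7 at 1.5-fold lower, against 1.08%. With the trend removed, 10 of the 26 higher genes were at 1.5-fold higher in knockdown cells (1.22% of all genes) and 6 of the 26 lower genes at 1.5-fold lower (0.972%).

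All 12 highest genes were above 0 in knockdown cells and 11 were at 1.5-fold, the exception being KYAT1 (0.27). Among the 11 were EMC6 (1.19), HPS6 (1.01), HBA2 (0.92) and PPDPF (1.68). The 12 are rich in G and C, and the median of all genes in the group richest in G and C was itself 0.60 there. With the trend removed EMC6 stood at 0.82, HPS6 at 0.36, HBA2 at 0.19 and PPDPF at 0.89 in knockdown cells. On that scale TIGD5 stood at 0.67, MEX3D at 0.33, ARMC5 at 0.27 and TRMT61A at 0.21 there. The rest of the 12 were near 0, SNAPC2 at 0.10, EME2 at 0.08, KYAT1 at 0.03 and FBXL6 at -0.10. Of the 12 lowest genes 9 were not above 0 and 3 were at 1.5-fold lower, HIST2H2AA4 (-1.45), KIT (-1.39) and DEPDC4 (-0.59). ACER2 was at -0.21, SESN3 at -0.40, CD3D at -0.16 and AMN1 at -0.03 there. Of the genes high with the trend removed, MT-ATP8 (1.34), ARPC4 (1.08) and IFITM1 (0.73) stood at 1.5-fold or more in knockdown cells as measured, and so did RPL41 (0.72). BBC3, CYP51A1 and SRXN1 stood at 1.29, 1.09 and 2.14. Some erythroid genes differed in sign between the pairs as measured, such as ALAS2 (0.18 and -0.26), HBZ (0.08 and -0.35) and HBA1 (0.53 and -0.51). With the trend removed HBZ was lower in both pairs (-0.31 and -1.0), while ALAS2 stood at 0.05 and -0.51 and HBA1 at 0.11 and -1.20. The difference between the pairs was not tested.

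**Figure D5:**
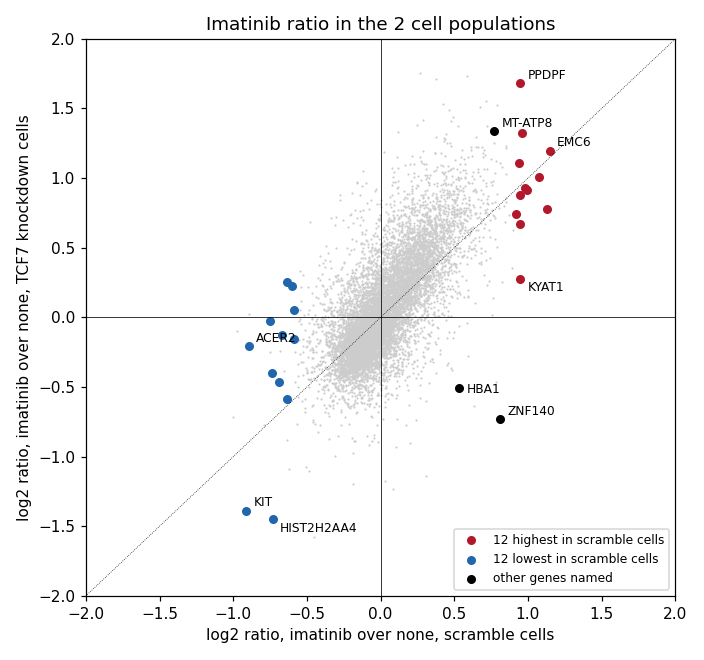
The log2 ratio of imatinib over none in TCF7 knockdown cells against that in scramble cells for 10092 genes averaging 5 CPM or more in the scramble pair; each ratio compares 1 library with 1 library, and the dotted line marks equal ratios. KIT and HIST2H2AA4 lie low in both pairs and EMC6 high in both, while ACER2 is near 0 in knockdown cells and ZNF140 and HBA1 lie below 0 there.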

How the data were processed

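Per the labels' protocols, RNA was depleted of ribosomal RNA and libraries were made with a directional kit. The build GRCh38 and the tools FastQC, HISAT2 and HTSeq (0.6.1) are listed by the submitters' processing notes. The annotation release and the counting's strand setting were not given in the sources used here. From these reads the authors deposited whole-number read counts, used as deposited, and FPKM columns, treated as a score because 6 of 28482 genes have negative values; these served only for an alternative.

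Genes with 1 CPM or more in at least 2 of 4 libraries were kept, 13296 in all. CPM values were scaled with TMM factors of the 4 libraries (edgeR 4.0.16, R 4.3.3), which were 0.9996 and 1.01 here, with a prior count of 2 in log2 ratios. Intervals are exact (Clopper-Pearson) binomial intervals and cover counting error only, since reads lack molecular identifiers. The limit that a count of 0 allows is 3 counts, or 0.0905 and 0.0880 CPM. Identifiers were matched to GENCODE release 29 (28329 matched, 26313 with the same version). The trend was a smooth fit of the ratio over GC content and log2 length of the longest transcript (mgcv 1.9.3), and the script was tested on simulated data. Near-identical copies and overlapping genes are uncertain. Not every overlap is stated where a gene is named. On the same strand, for example, BCL2L2 overlaps BCL2L2-PABPN1, PPAN overlaps PPAN-P2RY11, RPL17 overlaps RPL17-C18orf32 and SNHG3 overlaps RCC1.

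The members, lists and limits were chosen with earlier results of these data known. Named genes are the 12 highest and 12 lowest protein-coding genes averaging 5 CPM or more, as measured and with the trend removed, up to 4 members of each list with the largest ratios at that level, and a fixed set of imatinib, STAT5, ERK, erythroid and transport genes. Genes named outside this rule are list members at 1.5-fold or more, the abundant genes and the 2-fold noncoding transcript, chosen after their values were seen. Some genes the rule names are left out of the text. Sequences are those of the first 3 genes of each ranking with a complete coding part of 240 bases or more. Alternatives were other scalings (DESeq2 1.42.0 size factors, total counts, TMM factors of the pair alone), other filters, a prior count of 0.5, log2 of FPKM plus 0.1, thinned counts and other forms of the trend.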

Additional observations from a re-analysis of the deposited data

Results flagged for a closer look

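Among the named genes, those listed here had imatinib ratios, as measured, in opposite directions in scramble and in knockdown cells. Both log2 ratios had a size of 0.32 or more, and both counting intervals left out equal levels. Genes outside the named set are not listed, even where they meet these limits. Each ratio compares 1 library with 1 library, and the difference between the pairs was not tested.

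ZNF140, a KRAB zinc finger gene, had a log2 ratio of 0.81 in scramble cells and -0.73 in knockdown cells. HBA1, an alpha globin with a near-identical copy in HBA2, stood at 0.53 and -0.51, whereas HBA2 stood at 0.99 and 0.92. HS6ST1, a sulfotransferase of heparan sulfate, stood at -0.37 and 0.51. BTG2, an antiproliferative p53 target, stood at -0.33 and 0.35. With the GC and length trend removed, ZNF140 stood at 0.86 in scramble and -0.68 in knockdown cells, and HBA1 at 0.11 and -1.20. On that scale HS6ST1 stood at -0.65 and 0.01, and BTG2 at -0.37 and 0.26. The signs stayed opposite, but only ZNF140 still met the size limit in both pairs.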

How the results depend on the processing

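With 1 library in each group none was left out. No paired analysis was possible because the result comes from no test and the labels give the 2 libraries no replicate numbers to pair. Without the filter on low counts, 1612 genes were at 2-fold higher and 1545 lower, and 3459 and 2985 at 1.5-fold, since scarce genes enter. A filter at 5 CPM in at least 2 libraries left 4 and 1 at 2-fold and 179 and 27 at 1.5-fold, and a mean of 5 CPM or more in the pair, added after the values were seen, left 3 and 1, and 172 and 22. Protein-coding genes alone gave 71 higher and 24 lower at 2-fold and 119 lower at 1.5-fold. The deposited FPKM values gave 73 and 37 at 2-fold in place of 111 and 63. Removing the GC and length trend left 340 in place of 585 at 1.5-fold higher, and removing GC content alone 336. The correlation with GC content over all genes passing the filter was 0.57 in place of 0.68. Other counts stayed within 1.5 times.

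Under the other scalings, the prior count, FPKM values and thinned counts, 236 to 239 of 239 named genes stayed within their counting interval. Medians of 7 of 42 lists, all close to 0, took the other sign with total counts, TMM factors of the pair or FPKM values, and 14 did with the trend removed. A filter at 5 CPM turned 2 medians, that of the pro-apoptotic genes from 0.17 to -0.10 and that of the p53 targets from 0.03 to -0.02. No filter turned 2 within 0.01 of 0, those of the BCR-ABL1 adaptors and of the NRF2 response. With the trend removed 79 named genes stayed within their counting interval and 160 did not.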
